A study of Homo sapiens with 12 samples.

Results

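The 10 genes described here act in glucose entry and in the fate of pyruvate, and were followed in HEK 293T cells treated with a compound named PDP. They are the glucose carriers SLC2A1 and SLC2A3, the hexokinases HK1 and HK2, the fructose bisphosphate regulators PFKFB3 and PFKFB4, the lactate dehydrogenase subunits LDHA and LDHB, and the pyruvate dehydrogenase kinases PDK1 and PDK3. All 10 were found by symbol among the 58083 genes of each expression table. They were listed by function, so the choice of members did not use their values, although it was made with earlier results of these data known.

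HEK 293T cells descend from human embryonic kidney and express the large T antigen of SV40. RNA came from cells exposed to PDP at 1 µM during 3, 24 or 72 h and from control cells exposed to DMSO during 3 h, with 2 samples in each group. No control group of 24 h or 72 h was used here, and the control columns of the 3 tables differed by a constant factor (1.04 for the 24 h table and 0.968 for the 72 h table, relative to the 3 h table). Differences at 24 h and 72 h therefore hold the compound and the time in culture together, and these cannot be told apart. A separate assay in the series captured G-quadruplexes, four-stranded structures formed by runs of guanine, from purified and annealed genomic DNA of the same line (2 pull-down and 2 input samples).

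Each table gave 1 FPKM value per gene and condition (fragments scaled by transcript length and by library size), pooled over the samples of the condition. Single samples are hidden by the pooling, so values carry no SD between samples, and the depth of each library is unknown. A gene was "called" when the authors' deposited table gave it a q-value under 0.05 over all genes tested. Standard errors (SE) are those implied by the test statistic of the authors' deposited table, and intervals are 95% intervals from them. The sample titles carry the tag bio with a number, which marks the samples of a group as biological replicates. The labels do not say whether these were separate cultures, so p-values may measure technical spread alone. The labelled line was checked against markers: 6 genes of HEK 293T cells measured from 0.676 to 399 FPKM across conditions, with INA under 1 FPKM throughout. PTPRC, PECAM1, ALB and COL1A2, which mark leukocytes, endothelium, hepatocytes and fibroblasts, stayed at or under 0.389 FPKM. In such bulk samples, fewer cells of a kind and less RNA per cell cannot be told apart.

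Glucose enters most cells through facilitative carriers of the SLC2A (GLUT) family and is trapped by hexokinases as glucose 6-phosphate. PFKFB enzymes make and break fructose 2,6-bisphosphate, the strongest activator of phosphofructokinase, and so set the pace of glycolysis. At the end of the path pyruvate is either reduced to lactate by lactate dehydrogenase or oxidised in mitochondria by the pyruvate dehydrogenase complex, which PDK kinases switch off by phosphorylation. Many of these genes are textbook targets of the hypoxia-inducible factors (HIF), which bind the core letters ACGTG or GCGTG in DNA.

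Of the 10 genes, 8 rose at 72 h, and LDHB and PDK3 were not called. At 3 h none of the 9 members tested was called, against 0.108% of 14751 tested genes called higher and 0.00678% called lower. At an unadjusted p under 0.05 the authors' deposited table gave no member at 3 h either. At 24 h 5 of 10 members were called higher (SLC2A3, HK1, HK2, PFKFB4 and LDHA), beside 9.21% of 15385 tested genes, and none lower, beside 8.29%. At 72 h 8 of 10 were called higher, beside 19.0% of 15423 tested genes, and none lower, beside 12.8%. The median log2 fold change of members at 1 FPKM or above (geometric mean of both conditions) came to -0.07 at 3 h, to 0.41 at 24 h and to 1.36 at 72 h. Over all such genes the medians were -0.0036, -0.031 and 0.11. The log2 fold change of each of the 8 called members was higher at 72 h than at 24 h, which was not tested. For LDHB and PDK3 the order of the 24 h and 72 h values turned with the scaling: PDK3 had 0.14 at 24 h and 0.37 at 72 h as deposited, and 0.31 and 0.26 after scaling to equal FPKM sums. LDHB had -0.10 at 24 h and -0.02 at 72 h as deposited, 0.07 and -0.12 after that scaling, and -0.06 and -0.12 after centring on the median of expressed genes.

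**Figure D1:**
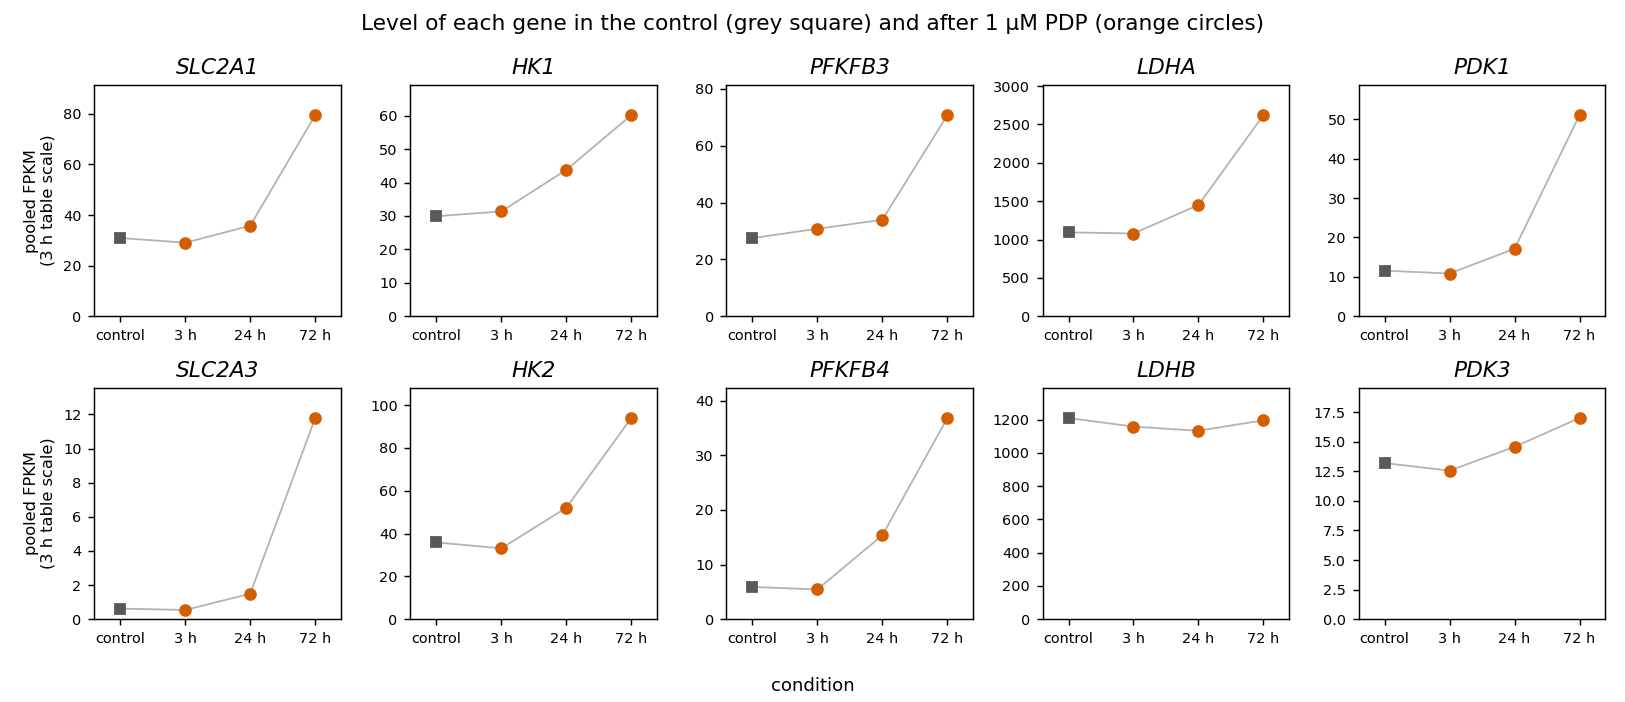
Pooled FPKM of each gene (y axis, linear from 0, divided by the control factor of its table so that all conditions share the scale of the 3 h table) in the control and after 3 h, 24 h and 72 h of PDP (x axis); each point is 1 pooled value with no error bar. Relative to the control, SLC2A3, PFKFB4 and PDK1 climb most by 72 h, whereas LDHB stays between 1134 and 1210 FPKM.

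The carriers come first in the path. SLC2A1 encodes GLUT1, the carrier that supplies basal glucose uptake in most cultured cells (ENSG00000117394.19, GRCh38 locus on chromosome 1, bases 42925374 to 42983358). It measured 29.1 FPKM with PDP against 30.9 FPKM in the control at 3 h, 37.1 FPKM with PDP against 32.1 FPKM in the control at 24 h and 77.0 FPKM with PDP against 30.0 FPKM in the control at 72 h. The 24 h value lay within its error, with a log2 fold change of 0.21 (SE 0.27, q = 0.465 in the authors' deposited table). The 72 h increase was 1.36 on the log2 scale (SE 0.29, q = 0.000393 in the authors' deposited table). All 8 members called at 72 h had this same q-value, the lowest among the members at that time. HK1 and PFKFB4 likewise shared a single q-value at 24 h. Equal q-values therefore do not rank these genes by strength of evidence, and their SE differ. The antisense gene SLC2A1-AS1 lies in the same locus. It measured 3.13 FPKM with PDP against 0.330 FPKM in the control at 72 h and was not called. Whether counting used strand is not given in the sources used here, so reads of the antisense gene and of SLC2A1 may not be told apart.

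SLC2A3 encodes GLUT3, a carrier of high glucose affinity best known from neurons (ENSG00000059804.15, chromosome 12, 7919229 to 7936275). It was close to silent in the control and had the largest log2 fold change of the 10 genes at 72 h. SLC2A3 measured 0.536 FPKM with PDP against 0.619 FPKM in the control at 3 h, a level too low for the test. At 24 h it measured 1.55 FPKM with PDP against 0.642 FPKM in the control, and at 72 h 11.4 FPKM with PDP against 0.599 FPKM in the control. Its 72 h log2 fold change was 4.25 (SE 1.01, q = 0.000393 in the authors' deposited table), a 19.1-fold ratio. With a pseudocount of 1 FPKM it was 2.96 at 72 h, and 0.63 at 24 h in place of 1.27, so the size of the SLC2A3 change depends on how its low control level is treated. The 24 h call is less firm, because the interval of its log2 fold change ran from -0.79 to 3.33 although q was 0.0347 in the authors' deposited table. The SE and the p-value of these tables can therefore reflect different measures of spread. SLC2A14, a near-identical neighbour of SLC2A3, measured 0.588 FPKM with PDP against 0.0300 FPKM in the control at 72 h and was not tested. How the authors assigned reads that match both genes is not given in the sources used here, so the SLC2A3 level is uncertain to that extent. SLC2A3P1, a pseudogene, measured 0.249 FPKM with PDP against 0.805 FPKM in the control at 72 h and was not called.

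Both hexokinases rose at 24 h and again stood higher at 72 h. HK1, the hexokinase found in nearly all tissues (ENSG00000156515.21, chromosome 10, 69269983 to 69401882), measured 31.4 FPKM with PDP against 29.9 FPKM in the control at 3 h. It measured 45.4 FPKM with PDP against 31.1 FPKM in the control at 24 h (log2 fold change 0.55, SE 0.20) and 58.2 FPKM with PDP against 29.0 FPKM in the control at 72 h (1.01, SE 0.20). HK2, the inducible hexokinase of muscle, fat and many tumours (ENSG00000159399.9, chromosome 2, 74832654 to 74893359), measured 33.1 FPKM with PDP against 35.9 FPKM in the control at 3 h. Its values were 54.0 FPKM with PDP against 37.2 FPKM in the control at 24 h (0.54, SE 0.20) and 91.0 FPKM with PDP against 34.7 FPKM in the control at 72 h (1.39, SE 0.25). The q-values of HK1 and HK2 in the authors' deposited table were 0.000908 and 0.00225 at 24 h, and 0.000393 for both at 72 h. HK1 minus HK2 was -0.38 on the log2 scale at 72 h, with an interval from -1.01 to 0.25 that includes 0.

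PFKFB4 led the response among the regulators of fructose 2,6-bisphosphate. PFKFB4 (ENSG00000114268.11, chromosome 3, 48517683 to 48563773) measured 5.45 FPKM with PDP against 5.90 FPKM in the control at 3 h, 16.0 FPKM with PDP against 6.12 FPKM in the control at 24 h and 35.7 FPKM with PDP against 5.71 FPKM in the control at 72 h. Its log2 fold change was 1.38 at 24 h (SE 0.37) and 2.64 at 72 h (SE 0.38), with q of 0.000908 and 0.000393 in the authors' deposited table. PFKFB3, whose enzyme strongly favours making fructose 2,6-bisphosphate (ENSG00000170525.18, chromosome 10, 6144933 to 6235545), measured 30.8 FPKM with PDP against 27.5 FPKM in the control at 3 h and 35.2 FPKM with PDP against 28.6 FPKM in the control at 24 h. It was not called at 24 h (log2 fold change 0.30, SE 0.39, q = 0.232 in the authors' deposited table). At 72 h PFKFB3 reached 68.5 FPKM with PDP against 26.7 FPKM in the control (1.36, SE 0.29, q = 0.000393 in the authors' deposited table). PFKFB3 minus PFKFB4 was -1.08 on the log2 scale at 24 h (interval -2.13 to -0.03) and -1.28 at 72 h (interval -2.22 to -0.35). These intervals combine the implied SE of both genes as if independent.

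Lactate dehydrogenase is a tetramer of LDHA and LDHB subunits. LDHA favours the reduction of pyruvate to lactate and LDHB is the subunit of tissues that use lactate. LDHA (ENSG00000134333.13, chromosome 11, 18394387 to 18408425) measured 1078 FPKM with PDP against 1094 FPKM in the control at 3 h, 1506 FPKM with PDP against 1136 FPKM in the control at 24 h and 2538 FPKM with PDP against 1059 FPKM in the control at 72 h. LDHB (ENSG00000111716.12, chromosome 12, 21635341 to 21775581) measured 1159 FPKM with PDP against 1210 FPKM in the control at 3 h, 1177 FPKM with PDP against 1257 FPKM in the control at 24 h and 1159 FPKM with PDP against 1171 FPKM in the control at 72 h. LDHA rose by 0.41 on the log2 scale at 24 h (SE 0.20, q = 0.0206 in the authors' deposited table) and by 1.26 at 72 h (SE 0.20, q = 0.000393 in the authors' deposited table). LDHB was not called at any time, and its 72 h log2 fold change of -0.02 had an interval from -0.40 to 0.37. LDHA minus LDHB was 1.28 on the log2 scale at 72 h, with an interval from 0.73 to 1.83. At 24 h the difference was 0.50, with an interval from -0.05 to 1.05 that includes 0.

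The pyruvate dehydrogenase kinases showed the same kind of split. PDK1, a kinase of the complex induced by HIF (ENSG00000152256.13, chromosome 2, 172427353 to 172608669), measured 10.8 FPKM with PDP against 11.6 FPKM in the control at 3 h, 17.8 FPKM with PDP against 12.0 FPKM in the control at 24 h and 49.4 FPKM with PDP against 11.2 FPKM in the control at 72 h. It was not called at 24 h (log2 fold change 0.57, SE 0.49, q = 0.217 in the authors' deposited table) and rose by 2.14 at 72 h (SE 0.42, q = 0.000393 in the authors' deposited table). PDK3 (ENSG00000067992.12, chromosome X, 24465220 to 24539837), another kinase of the same complex, measured 12.6 FPKM with PDP against 13.2 FPKM in the control at 3 h, 15.1 FPKM with PDP against 13.7 FPKM in the control at 24 h and 16.5 FPKM with PDP against 12.8 FPKM in the control at 72 h. Its 72 h log2 fold change of 0.37 (SE 0.27) had p = 0.0378 and q = 0.0990 in the authors' deposited table, which misses the threshold. PDK1 minus PDK3 was 1.77 on the log2 scale at 72 h (interval 0.80 to 2.75). The PDK1 locus also holds ITGA6, an integrin gene, which was called higher as well, with 13.3 FPKM with PDP against 4.61 FPKM in the control at 72 h. Whether reads were shared between PDK1 and ITGA6 was not tested.

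**Figure D2:**
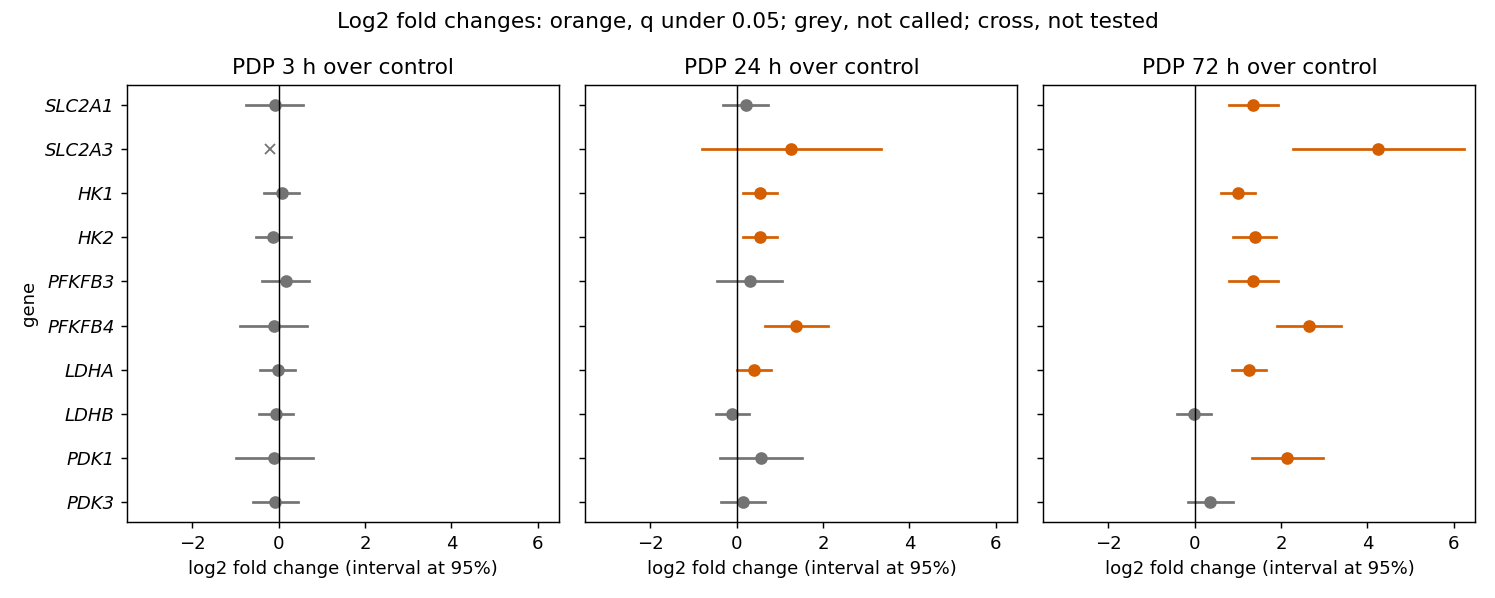
Log2 fold change of PDP over control (x axis) for each gene (y axis) at 3 h, 24 h and 72 h, with bars that span the 95% interval from the implied SE. Called genes are orange: none at 3 h, 5 at 24 h and 8 at 72 h, while LDHB and PDK3 are grey in all panels and SLC2A3 at 3 h is a cross because it was not tested.

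FPKM is scaled by transcript length, so the levels of paralogues can be set side by side. In the control of the 72 h table LDHB and LDHA were the most abundant members, at 1171 and 1059 FPKM, followed by HK2, SLC2A1, HK1 and PFKFB3 between 34.7 and 26.7 FPKM. PDK3, PDK1 and PFKFB4 lay between 12.8 and 5.71 FPKM and SLC2A3 at 0.599 FPKM. With no spread between samples, the order of close neighbours such as SLC2A1 and HK1 cannot be judged.

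The make-up of the pairs moved in 4 of 5 cases at 72 h by over 10 percentage points, on FPKM with no pseudocount. LDHA held 68.7% of the summed LDHA and LDHB FPKM with PDP at 72 h and 56.1% with PDP at 24 h, against 47.5% in the control. PDK1 held 75.0% of its pair with PDP at 72 h against 46.7% in the control. PFKFB4 held 34.2% of its pair with PDP at 72 h against 17.6% in the control, and this shift was already present at 24 h (31.2% with PDP). SLC2A3 made up 12.9% of the carrier pair with PDP at 72 h against 1.96% in the control, so SLC2A1 remained the main carrier of the pair in FPKM. With a pseudocount of 1 FPKM the SLC2A1 share was 86.3% with PDP at 72 h against 95.1% in the control, a shift under 10 points. HK1 held 39.0% of the hexokinase pair with PDP at 72 h against 45.5% in the control, the smallest shift of the 5 pairs. The summed level of every pair was higher with PDP at 72 h: LDHA and LDHB together reached 3697 FPKM with PDP against 2230 FPKM in the control, and HK1 and HK2 together 149 FPKM with PDP against 63.7 FPKM in the control.

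**Figure D3:**
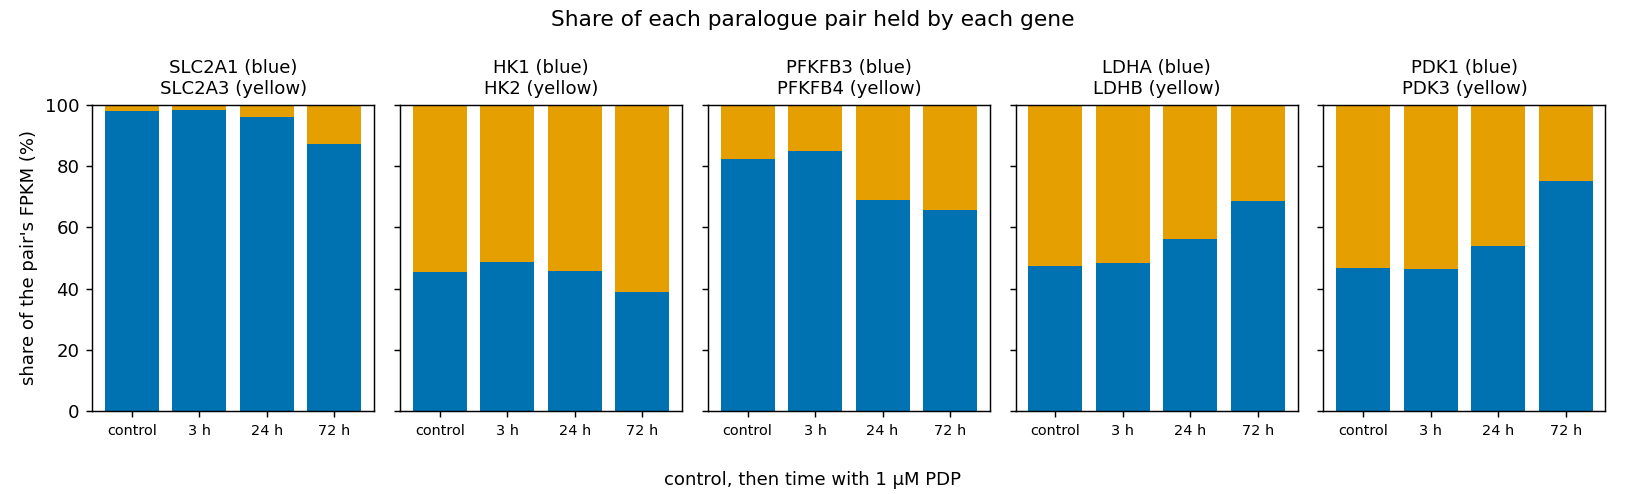
Share of the summed FPKM of each paralogue pair (y axis, percent) held by the first gene (blue) and the second gene (yellow) in the control and after 3 h, 24 h and 72 h of PDP (x axis); bars are pooled values with no error. LDHA goes to 68.7% and PDK1 to 75.0% at 72 h, and the hexokinase pair shifts least.

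Within all tested genes the members ranged from near the middle to the upper tail. At 72 h SLC2A3 lay at percentile 98.7 of the log2 fold changes, PFKFB4 at 96.6 and PDK1 at 94.4. HK2, PFKFB3, SLC2A1, LDHA and HK1 lay between percentiles 88.7 and 82.9, PDK3 at 62.4 and LDHB at 41.6. In absolute terms the LDHA gain was by far the largest of the 10 genes, 1479 FPKM more with PDP than in the control at 72 h, and the next was HK2 with 56.3 FPKM. By level among genes of at least 1 FPKM, PDK1 stood at percentile 85.1 with PDP at 72 h, against percentile 46.2 in the control.

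**Figure D4:**
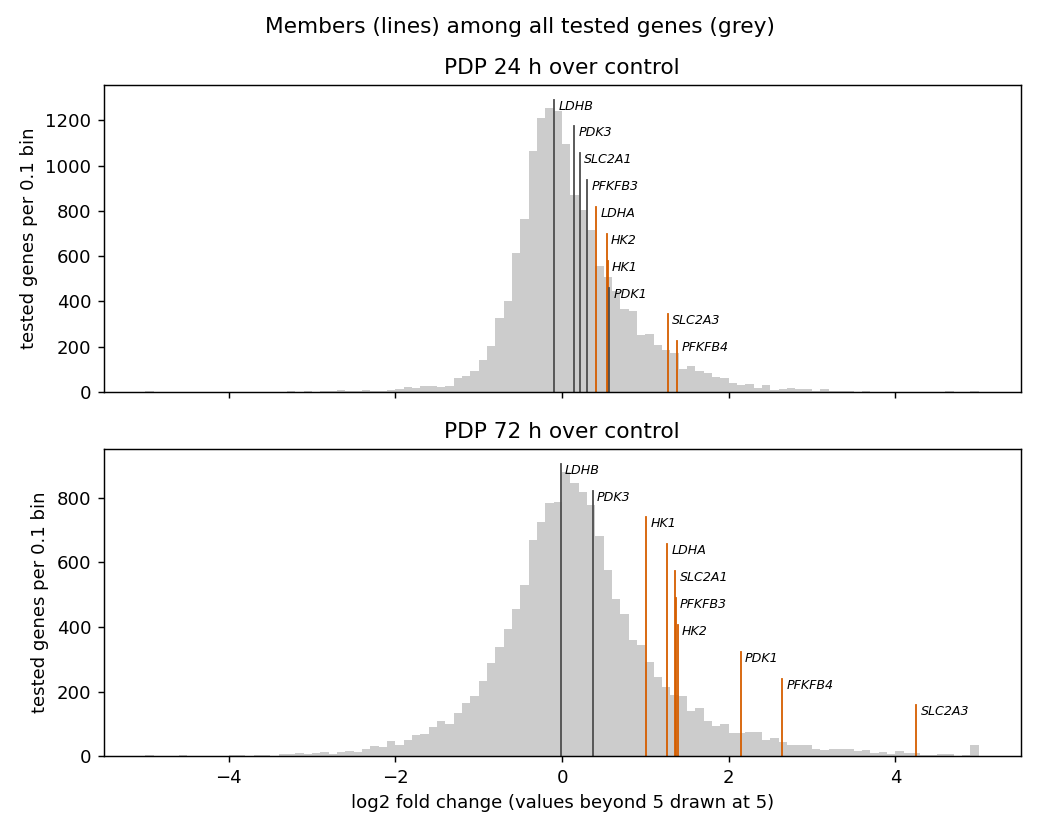
Number of tested genes (y axis) by log2 fold change of PDP over control (x axis, bins of 0.1) at 24 h and 72 h, with a line for each of the 10 members (orange, called higher; grey, not called). At 72 h SLC2A3, PFKFB4 and PDK1 sit in the right tail at 4.25, 2.64 and 2.14, and LDHB sits at the centre.

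The enzymes of the main glycolytic path, between the hexokinase step and pyruvate, are the closest group. Of 17 such genes, 14 were tested. At 24 h none of them was called, beside 9.21% of all tested genes called higher and 8.29% called lower. At an unadjusted p under 0.05 in the authors' deposited table, 1 of them was higher at 24 h. At 72 h 10 of the 14 were called higher, beside 19.0% of all tested genes, and none lower, beside 12.8%. At 72 h the median log2 fold change over expressed genes was 1.36 for the members and 0.90 for these enzymes. The difference between these groups was not tested.

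Other genes of glucose entry and pyruvate fate did not move as a block. Of 53 listed, 35 were tested at 24 h, where 4 were called higher and 2 lower, and 36 at 72 h, where 7 were called higher and 4 lower. Their median log2 fold change over expressed genes was 0.15 at 24 h and -0.0083 at 72 h. None was called at 3 h, and none had an unadjusted p under 0.05 in the authors' deposited table. The counts of called genes are 11.4% and 5.71% of those tested at 24 h and 19.4% and 11.1% at 72 h, near the shares over all genes.

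Among the other carriers, SLC2A4, the insulin-responsive GLUT4, rose at both later times. SLC2A4 measured 8.04 FPKM with PDP against 2.12 FPKM in the control at 24 h (log2 fold change 1.92, SE 0.36) and 5.27 FPKM with PDP against 1.98 FPKM in the control at 72 h (1.41, SE 0.37). SLC2A12 was called at 24 h (6.31 FPKM with PDP against 2.25 FPKM in the control) and was not called at 72 h. At 72 h SLC2A13, a proton-coupled myo-inositol carrier, rose to 8.83 FPKM with PDP against 5.79 FPKM in the control, and SLC2A8 fell to 9.50 FPKM with PDP against 16.7 FPKM in the control. The kidney carriers SLC5A1 and SLC5A2, the liver carrier SLC2A2 and the hexokinases HK3 and HKDC1 were below 0.1 FPKM in every condition and were not tested.

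TIGAR, which breaks down fructose 2,6-bisphosphate and so opposes PFKFB3, fell at both later times. TIGAR measured 8.27 FPKM with PDP against 13.7 FPKM in the control at 24 h (log2 fold change -0.73, SE 0.26) and 5.85 FPKM with PDP against 12.8 FPKM in the control at 72 h (-1.13, SE 0.28). PFKFB2 measured 8.66 FPKM with PDP against 7.04 FPKM in the control at 72 h and was not called.

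Carriers of lactate and pyruvate went in different directions. SLC16A1 (MCT1), which moves lactate across the plasma membrane, was called lower at 24 h, at 138 FPKM with PDP against 182 FPKM in the control. The interval of its 24 h log2 fold change, from -0.81 to 0.02, included 0, although q was 0.0322 in the authors' deposited table. SLC16A1 was not called at 72 h (143 FPKM with PDP against 169 FPKM in the control). MPC1, a subunit of the mitochondrial pyruvate carrier, fell at 72 h to 40.4 FPKM with PDP against 72.8 FPKM in the control (log2 fold change -0.85, SE 0.22). Its partner MPC2 measured 36.9 FPKM with PDP against 38.5 FPKM in the control at 72 h and was not called. EMB, an accessory protein of monocarboxylate carriers, rose to 20.1 FPKM with PDP against 11.0 FPKM in the control at 72 h. SLC16A7 (MCT2) was called lower at 72 h, 0.228 FPKM with PDP against 1.03 FPKM in the control, with an implied SE of 2.87 that exceeds its log2 fold change of -2.18. SLC16A3 (MCT4), the lactate exporter of glycolytic cells, measured 1.35 FPKM with PDP against 0.376 FPKM in the control at 72 h and was not called (q = 0.0800 in the authors' deposited table).

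The subunit genes of the pyruvate dehydrogenase complex were not called at any time. Of 10 tested genes of the complex and its regulators, 1 was called higher at 24 h (10%), beside 9.21% of all tested genes. At 72 h 3 of 10 were called higher (30%), beside 19.0% of all tested genes. None was called lower, beside 8.29% of all tested genes at 24 h and 12.8% at 72 h. PDHA1 measured 174 FPKM with PDP against 178 FPKM in the control at 72 h, PDHB 83.2 FPKM with PDP against 99.2 FPKM in the control and DLAT 35.7 FPKM with PDP against 48.4 FPKM in the control, and DLD and PDHX were not called either. Of these, DLAT alone had an unadjusted p under 0.05 in the authors' deposited table at any time, being lower at 72 h with q = 0.0929. PDK4, a kinase of the complex known for its response to fasting, was called higher at both later times, with 0.902 FPKM with PDP against 0.207 FPKM in the control at 24 h and 1.33 FPKM with PDP against 0.193 FPKM in the control at 72 h (log2 fold change 2.78, SE 2.05). PDK2 measured 18.3 FPKM with PDP against 14.1 FPKM in the control at 72 h and was not called. The opposing phosphatase genes, named PDP1 and PDP2 and unrelated to the compound, rose as well at 72 h. PDP2 reached 28.0 FPKM with PDP against 12.2 FPKM in the control (1.20, SE 0.47), and PDP1 13.9 FPKM with PDP against 9.05 FPKM in the control (0.62, SE 0.29). The kinase and phosphatase genes that were called thus lay in the same direction. The PDK4 calls are less firm, because its intervals included 0 (-1.59 to 5.84 at 24 h and -1.23 to 6.79 at 72 h).

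Among the remaining enzymes, LDHD, a mitochondrial D-lactate dehydrogenase, rose at 24 h to 2.90 FPKM with PDP against 0.991 FPKM in the control, and was not called at 72 h. GPT2, which converts pyruvate and alanine into each other, rose at 72 h to 45.0 FPKM with PDP against 28.1 FPKM in the control (0.68, SE 0.33).

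**Figure D5:**
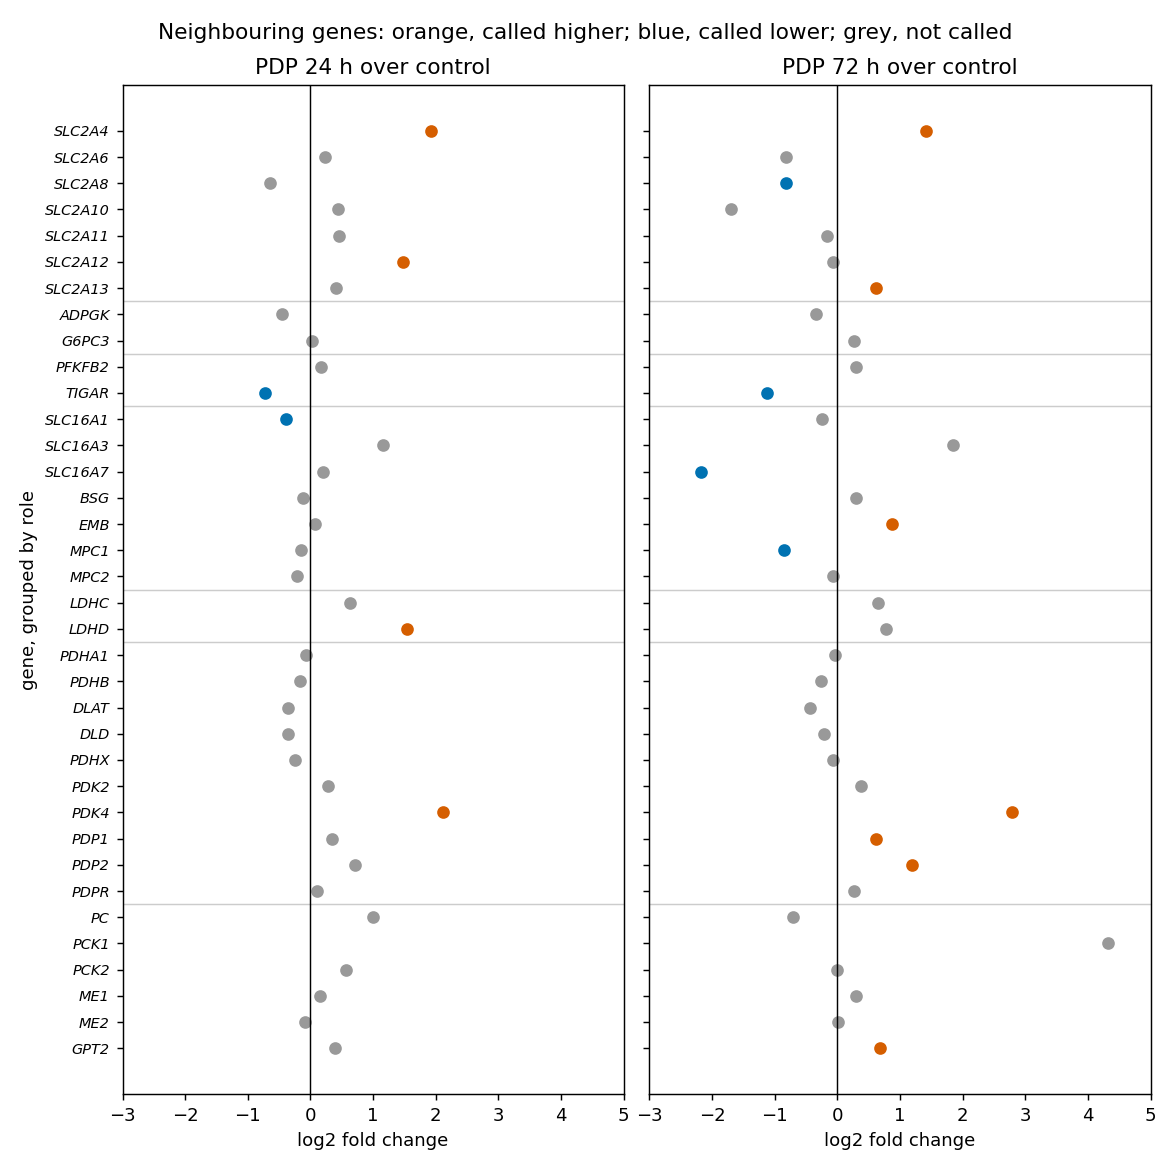
Log2 fold change of PDP over control (x axis) at 24 h and 72 h for the tested neighbouring genes (y axis, lines separate roles from glucose carriers at the top to other pyruvate fates at the bottom). At 72 h 7 are called higher (orange) and 4 lower (blue), among them TIGAR and MPC1 lower and PDP2, PDK4 and SLC2A4 higher.

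Near copies of the members were mostly silent. Of 14 such genes, LDHAP4, a processed pseudogene of LDHA, was called, with 8.98 FPKM with PDP against 4.35 FPKM in the control at 24 h and 7.35 FPKM with PDP against 4.05 FPKM in the control at 72 h. LDHA itself stood at 1506 FPKM with PDP at 24 h, and whether reads of LDHAP4 came from it was not tested. The copies of LDHB were at or under 0.0495 FPKM in every condition.

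The genes with the most similar pattern over the 3 comparisons were found by the Euclidean distance between their log2 fold changes, among 12225 expressed genes with a symbol. The closest to LDHA were CFLAR (distance 0.014) and NCR3LG1 (0.060), and those closest to PDK1 were PNCK (0.078) and P4HA1 (0.11), a collagen prolyl hydroxylase subunit. ARRDC4 (0.028) and HAND1 (0.035) were nearest to HK1, and SNHG10 (0.041) and C12orf57 (0.081) to SLC2A1. SLC2A3 had no close match: SAT1 at 0.39 and IER3 at 0.54 were the nearest. For LDHB, with changes near 0, the nearest were TADA3 (0.025) and LYPLA1 (0.030). The nearest to HK2 were SIDT2 (0.090) and RIMKLB (0.093), and those to PFKFB3 were STX3 (0.060) and ZEB2 (0.071). PFKFB4 had ZBTB25 (0.175) and DLG4 (0.177), and PDK3 had MLF1 (0.014) and FBLN1 (0.027). All these comparisons share the control.

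Because 8 members rose at 72 h, their promoters were read for short motifs. RefSeq promoters (GRCh38.p14, 250 bases before to 50 after a start) were matched by symbol for 9 members (all but SLC2A3), 19 windows in all. The window before the first LDHA start is shown beside those of LDHB and PDK3, which were not called, and the last 30 bases before a PDK1 start are added. Capitals mark ACGTG or GCGTG on either strand, so that CACGT and CACGC are the same motifs read on the other strand, and CACGTG holds ACGTG on both.
LDHA, chr11:18394313-18394562, plus strand: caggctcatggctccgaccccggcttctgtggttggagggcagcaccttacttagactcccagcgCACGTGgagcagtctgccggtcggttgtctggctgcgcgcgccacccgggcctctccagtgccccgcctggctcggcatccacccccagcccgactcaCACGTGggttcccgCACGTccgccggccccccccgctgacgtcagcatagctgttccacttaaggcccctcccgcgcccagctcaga
LDHB, chr12:21657843-21658092, minus strand: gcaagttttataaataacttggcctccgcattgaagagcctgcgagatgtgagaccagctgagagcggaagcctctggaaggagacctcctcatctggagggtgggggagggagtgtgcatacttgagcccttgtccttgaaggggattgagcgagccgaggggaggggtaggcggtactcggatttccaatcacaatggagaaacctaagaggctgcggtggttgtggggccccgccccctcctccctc
PDK3, chrX:24465036-24465285, plus strand: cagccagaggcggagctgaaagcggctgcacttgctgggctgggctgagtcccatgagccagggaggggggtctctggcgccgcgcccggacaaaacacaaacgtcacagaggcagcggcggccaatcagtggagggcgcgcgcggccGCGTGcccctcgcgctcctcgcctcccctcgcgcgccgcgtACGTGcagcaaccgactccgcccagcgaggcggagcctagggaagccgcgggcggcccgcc
PDK1, chr2:172556060-172556089, plus strand: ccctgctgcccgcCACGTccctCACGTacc

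The printed LDHA stretch held 5 matches, counting both strands, the LDHB stretch none, the PDK3 stretch 2 and the PDK1 stretch 2. Matches did not separate called from other members. The LDHB window held 1 GCGTG once its last 50 bases were included, and the window of the first PDK1 start held neither motif. Either motif lay in 13 of 19 full windows (68.4%), in at least 1 window of each of the 9 genes, against 48.4% of all promoters and 61.5% of those of expressed genes. Over the full windows of 300 bases, ACGTG on either strand lay in 6 of 19 member windows (31.6%), in 21.4% of all 35116 promoters and in 25.6% of 14186 promoters of expressed genes. GCGTG lay in 11 of 19 (57.9%), in 36.5% of all and in 49.5% of those of expressed genes. CACGTG, the E-box, which contains ACGTG, lay in 3 of 19 (15.8%), in windows of LDHA, HK2 and PFKFB3, against 7.26% of all promoters and 9.45% of those of expressed genes. Windows of 1 gene are not independent, and the first pair of the 7 HK1 windows overlap almost fully. A match describes letters and shows no binding.

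The G-quadruplex motif (4 runs of at least 3 G with 1 to 7 bases between runs, either strand) lay in 7 of 19 member windows (36.8%), in 25.0% of all promoters and in 34.6% of those of expressed genes. The windows belonged to SLC2A1, HK1, HK2, PFKFB3, PFKFB4 and PDK1. None of the windows of LDHA, LDHB or PDK3 held it.

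The pull-down gave a second readout of the same loci. It captures DNA that was purified and annealed, so it shows sequence that can fold and not chromatin of treated cells. Of 51446 peaks in the authors' deposited list, 18 had their centre in a member locus, and 7 of 10 loci (70.0%) held at least 1, against 56.1% of 10320 loci of expressed genes. Pooled over length, the member loci held 0.221 peaks per 10 kb and the loci of expressed genes 0.195. The median locus length was 67.7 kb for members and 47.7 kb for expressed genes. Loci of SLC2A1, SLC2A3 and LDHA, which all rose at 72 h, held no peak. Their lengths were 58.0, 17.0 and 14.0 kb, so the SLC2A1 locus was longer than the median of expressed genes and the others were shorter. Whether locus length accounts for the lack of a peak was not tested. The loci of HK1, HK2, PFKFB3, PFKFB4 and PDK1, which rose too, held from 1 to 6 peaks. The 2 peaks of the PDK1 locus, at chr2:172454127-172454572 and chr2:172537002-172537404, lie upstream of the PDK1 promoter windows, which begin at base 172555123 on the plus strand. That locus also holds ITGA6, so these peaks cannot be assigned to PDK1. The loci of LDHB and PDK3, which were not called, held 1 and 3. Whether peaks went with the change in RNA was not tested. The PFKFB4 locus had the highest density, 0.651 peaks per 10 kb. Its highest-scoring peak, at chr3:48563208-48563610, had a score of 16.1 in the authors' deposited list, where the median is 10.96. It cannot be assigned to PFKFB4, because that locus also holds UCN2 and MIR6823. The HK1 locus held 6 peaks. The single peak in the LDHB locus, at chr12:21736693-21737271, cannot be assigned to LDHB for the same reason, since KCNJ8 lies in that locus. This peak also lies upstream of the LDHB promoter window, which spans bases 21657793 to 21658092 on the minus strand.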

How the data were processed

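RNA was poly(A) selected and made into stranded libraries, and pull-down libraries were made from genomic DNA, per the labels' protocols. Per the submitters' processing notes, the tools included Trim Galore 0.4.4, HISAT2 2.0.5, Cufflinks 2.2.1, Bowtie2 2.2.9, SAMtools 1.3.1, Picard, HOMER 4.9.1 and GRCh38.p7, without settings. The authors' deposited RNA tables hold FPKM pooled per condition, with the authors' p-value and q-value. The score of the authors' deposited test statistic gave the SE (log2 fold change divided by statistic), and the peak score of the authors' deposited list has no stated unit. Pooling hides the spread between samples, and depth is unknown.

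Log2 fold changes were computed from FPKM as PDP over control, with no pseudocount. Calls used q under 0.05 over each whole table. No test across samples could be fitted. Expressed means a geometric mean FPKM of at least 1. Peaks were assigned by centre to the locus of the RNA tables. RefSeq promoters were those of GRCh38.p14. Named genes were all members, up to 4 called neighbouring genes per role, near copies by symbol, and 2 most similar genes per member. Other genes named without a call were chosen after their values were seen. Members and lists were chosen with earlier results of these data known. The fold change formula, the p-value adjustment and the q threshold were tested on simulated data. The implied SE, pair shares, motif matching and peak assignment were not tested in this way. Alternatives were other q, fold and FPKM limits, a pseudocount, other scalings, widened loci, the upper part of the peaks and 1 strand. Work used Python 3.11.15, NumPy 2.4.6, pandas 2.3.3 and Matplotlib 3.10.9.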

Additional observations from a re-analysis of the deposited data

How the results depend on the processing

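No paired analysis was possible because the columns are pooled over the samples of a condition and carry no replicate number, and for the same reason no sample could be left out. At 24 h the 5 higher calls became 3 at a q of 0.01 and 2 with a log2 fold change of at least 1, and 4 with p-values adjusted over genes of at least 1 FPKM alone or over genes of at least 5 FPKM alone, since SLC2A3 then falls outside the genes adjusted. At 72 h the count was 8 under each of these settings, except 7 when adjusted over genes of at least 5 FPKM, which again leaves out SLC2A3. A pseudocount of 1 FPKM put SLC2A1 minus SLC2A3 at 72 h at -1.63, where it was -2.89 (interval -4.94 to -0.84) without one, since SLC2A3 is low in the control, and put the SLC2A1 share of its pair at 95.1% with PDP at 3 h and 95.2% in its control, and at 95.3% in the control of the 24 h table and 95.1% in that of the 72 h table. Scaling to equal FPKM sums shifted every log2 fold change by 0.17 at 24 h and by -0.10 at 72 h, and neither this nor centring on the median of expressed genes reversed a called member. The upper 50% of peaks by score left 10 of 18 peaks in member loci. On the gene strand alone GCGTG lay in 5 and the G-quadruplex motif in 3 member promoters. The pooled values limit every result here, and the 24 h and 72 h tables have no control of their own time.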
